A study of Homo sapiens with 4 samples.

Results

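The integrin and laminin subunits were the genes whose symbol on the array names an integrin alpha or beta chain or a laminin alpha, beta or gamma chain. A total of 38 such genes, 26 integrins and 12 laminins, were found among 29123 genes on the array, measured by 65 probes on 101 spots. Of these, 35 genes (24 integrins and 11 laminins) passed the filter on dim probes, among 27223 genes that passed in all. The members that did not pass were ITGAD, ITGB6 and LAMB4, whose probes were dim: to pass, a probe had to stand well above background in the Ctrl or the KO channel of both arrays in either group. The rule went by gene symbol and used no measured value, but it was chosen with earlier results of these data known.

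GALNT3 and GALNT6 encode enzymes that start mucin-type O-glycosylation, and the study asked what their loss changes in epithelial ovarian cancer (EOC) cells. The arrays came from A2780s, an established human EOC cell line. KO RNA was labelled with Cy5 and Ctrl RNA with Cy3 on each of the 4 arrays, which all lay on 1 slide. The study describes Ctrl as mock-transfected A2780s and speaks of a corresponding Ctrl for the KO clones. The GALNT3 KO group held 2 clones made with CRISPR/Cas9 and a repair plasmid selected with puromycin. The GALNT3/T6 KO group held 2 clones in which a lentiviral shRNA against GALNT6 was added to GALNT3 KO cells, so that vector and group cannot be told apart. Each group was thus 2 clones of 1 cell line on 2 arrays, and the Ctrl was never hybridized against itself. GALNT3 went against the label of the second group. Its log2 ratio of KO over Ctrl stood at 0.13 and 0.24 in GALNT3 KO, with both channels not well above background. In the clones labelled GALNT3/T6 KO it stood at 4.80 and 5.08, with both channels, Ctrl included, well above background on both arrays. GALNT6 stood at -0.47 and -0.38 in GALNT3 KO and at -0.66 and -0.69 in the other group. The second group is therefore named by its label throughout.

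Integrins are receptors of the cell surface, each built from 1 alpha and 1 beta chain, that hold cells to the extracellular matrix and pass signals in both directions across the membrane. Laminins are trimers of an alpha, a beta and a gamma chain that, with type IV collagen, form the basement membrane on which epithelia rest. The digits in a laminin's name give its alpha, beta and gamma chain in that order, and an integrin is named by its chains in the same way. In ovarian carcinoma, integrins are known for the attachment of shed tumor cells to the peritoneal surface.

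Some probes behind the main results are shown with their hg19 positions, 5′ to 3′ and all in lower case, since no letter stands out. The LAMB1, LAMA5 and ITGB2 probes are those used for these genes: LAMB1 gave the largest change, LAMA5 rose, and ITGB2 had a second probe of opposite sign. The ITGB1 probes, which read the shared beta chain of most laminin and collagen receptors, went the other way than the probe used for it. Probes with ends further apart on the genome than their 60 bases cover more than 1 genomic block. In each of these probes 2 of the forward reading frames held no stop codon. Exon annotation of hg19 was not used here.
LAMB1 probe A_23_P94030, chr7:107564411-107564470, strand -: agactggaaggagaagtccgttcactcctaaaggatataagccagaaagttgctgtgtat
LAMA5 probe A_23_P109269, chr20:60885302-60885361, strand -: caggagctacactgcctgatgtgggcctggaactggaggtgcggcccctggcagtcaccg
ITGB2 probe A_23_P430411, chr21:46321625-46326865, strand -: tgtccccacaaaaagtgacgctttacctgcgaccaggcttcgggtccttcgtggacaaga
ITGB1 probe A_23_P104193, chr10:33197399-33197458, strand -: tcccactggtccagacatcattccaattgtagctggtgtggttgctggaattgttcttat
ITGB1 probe A_23_P104199, chr10:33200507-33200566, strand -: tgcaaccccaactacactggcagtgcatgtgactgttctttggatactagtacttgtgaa

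The RefSeq promoter table (GRCh38.p14) held 26 of the 38 members, with 33 start sites, and the 250 bases before a start were searched on both strands for TGANTCA (AP-1), GGGCGG (SP1) and CACCTG (the E-box bound by factors of the Snail and ZEB families). Among all 35116 start sites, 6.57% held the AP-1 letters, 42.6% those of SP1 and 17.5% the E-box. Among the 33 start sites of members, 2 held AP-1 (6.06%), 17 held SP1 (51.5%) and 8 held the E-box (24.2%). The AP-1 matches belonged to LAMA3 and, at another of its 3 start sites than the one shown, to LAMB3, which encode chains of the same laminin. The windows before the outermost start are shown for LAMB1, LAMA3, LAMB3 and ITGA6, the 4 members in the table with the largest rise, and for ITGAV, which fell. Capitals mark every match, and in LAMA3 an E-box match overlaps an AP-1 match.
LAMA3, chr18:23872770-23873019, strand +: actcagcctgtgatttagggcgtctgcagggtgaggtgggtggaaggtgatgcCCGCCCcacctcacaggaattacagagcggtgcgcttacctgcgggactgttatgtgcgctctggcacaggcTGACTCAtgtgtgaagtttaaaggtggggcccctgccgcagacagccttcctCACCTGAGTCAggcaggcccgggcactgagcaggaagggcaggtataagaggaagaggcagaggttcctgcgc
LAMB3, chr1:209652426-209652675, strand -: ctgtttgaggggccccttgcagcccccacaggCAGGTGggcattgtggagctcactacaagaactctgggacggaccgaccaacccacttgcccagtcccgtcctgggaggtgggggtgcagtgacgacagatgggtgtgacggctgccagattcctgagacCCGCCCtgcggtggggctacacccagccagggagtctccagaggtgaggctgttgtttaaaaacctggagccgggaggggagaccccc
LAMB1, chr7:108003162-108003411, strand -: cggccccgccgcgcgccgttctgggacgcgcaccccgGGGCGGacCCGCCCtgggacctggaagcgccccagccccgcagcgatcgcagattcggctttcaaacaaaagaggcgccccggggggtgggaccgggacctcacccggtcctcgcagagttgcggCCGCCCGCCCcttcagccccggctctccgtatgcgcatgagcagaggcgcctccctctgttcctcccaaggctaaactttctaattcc
ITGA6, chr2:172427086-172427335, strand +: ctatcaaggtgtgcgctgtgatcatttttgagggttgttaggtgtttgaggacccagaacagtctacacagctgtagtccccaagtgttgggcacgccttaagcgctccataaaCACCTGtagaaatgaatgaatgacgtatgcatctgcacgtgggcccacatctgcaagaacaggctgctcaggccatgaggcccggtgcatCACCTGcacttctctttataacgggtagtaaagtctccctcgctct
ITGAV, chr2:186589806-186590055, strand +: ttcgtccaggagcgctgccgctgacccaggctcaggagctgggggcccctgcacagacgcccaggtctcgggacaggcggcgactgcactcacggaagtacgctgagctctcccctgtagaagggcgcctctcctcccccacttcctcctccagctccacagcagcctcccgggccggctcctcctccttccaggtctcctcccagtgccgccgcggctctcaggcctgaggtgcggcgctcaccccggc
LAMA3 held 2 AP-1 matches, while the window of ITGAV held none of the letters searched. These matches describe the sequence only. The other 12 members, among them ITGA3, ITGA7, ITGB2, ITGB4 and LAMA1, had no entry in the table.

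Laminin chains and laminin-binding integrins were higher in the clones labelled GALNT3/T6 KO than in Ctrl, while few members differed in GALNT3 KO. A gene was called where its limma p, adjusted by Benjamini-Hochberg over all genes tested, reached 0.05 or less. Among the 35 members tested, 17 were called higher (48.6%) and 2 lower (5.71%) in the clones labelled GALNT3/T6 KO, where 24.8% of all genes were called higher and 23.1% lower. Laminins made up 8 of these risers, out of 11 tested (72.7%), and integrins 9 of 24 (37.5%), and both members that fell were integrins. Of the risers, ITGA3 and LAMA3 passed the filter only through the arrays of these clones, where they were high. A stricter filter, which asked for signal well above background on all 4 arrays, removed both. It left 15 of 32 members higher, with 24.8% of all genes. In GALNT3 KO 3 members were called higher (8.57%, with 4.69% of all genes), and limma called 0 lower (with 6.35% of all genes), although 3 members lay below Ctrl at an unadjusted p of at most 0.05. Set against GALNT3 KO directly, 11 members were higher (31.4%, with 11.8% of all genes) and 2 lower (5.71%, with 11.9%) in the clones labelled GALNT3/T6 KO.

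**Figure D1:**
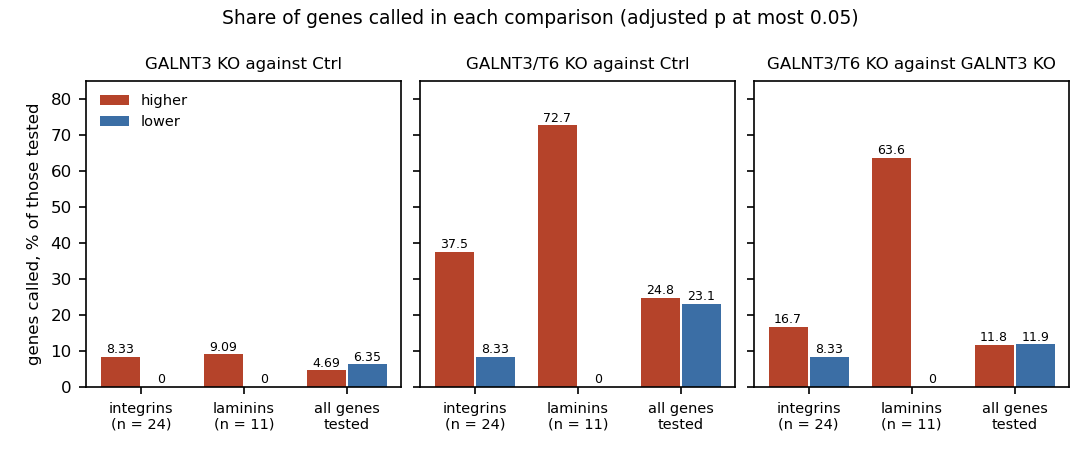
Percentage of genes called higher or lower (adjusted p at most 0.05, limma) among the 24 integrins, the 11 laminins and all 27223 genes tested, in each of the 3 comparisons. Laminins reached 72.7% higher in the clones labelled GALNT3/T6 KO, with 24.8% of all genes.

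The median log2 ratio of the laminins was 1.13 in the clones labelled GALNT3/T6 KO, that of the integrins 0.34 and that of all genes tested 0.03. In GALNT3 KO these medians were 0.06, 0.00 and 0.02. By the study's own criterion, an unadjusted p of 0.05 or less with a 1.5-fold or larger change, 13 members were higher and 2 lower in the clones labelled GALNT3/T6 KO, with 14.6% and 17.2% of all genes. By that criterion 2 members were higher and 1 lower in GALNT3 KO, with 3.23% and 6.37% of all genes. Fitted on its own 2 arrays, without those labelled GALNT3/T6 KO, the GALNT3 KO group had 7 members called higher and 5 lower, with 16.9% and 17.9% of all genes, the higher being LAMB1, LAMC1, ITGA8, ITGAM, ITGAV, ITGB2 and ITGB7 and the lower LAMA1 (-1.18, adjusted p = 0.00124), ITGA1, ITGA2, ITGB1 and ITGB5. The same fit of the other group without the GALNT3 KO arrays called 11 members higher and 2 lower, with 14.7% and 15.9% of all genes. With median centring in place of loess 11 members were higher in the clones labelled GALNT3/T6 KO, with 18.0% of all genes, and all-gene calls in GALNT3 KO came to 2.01% higher and 6.53% lower. Whether a lower ratio reflected fewer cells with a transcript or less of it per cell cannot be told from bulk RNA.

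**Figure D2:**
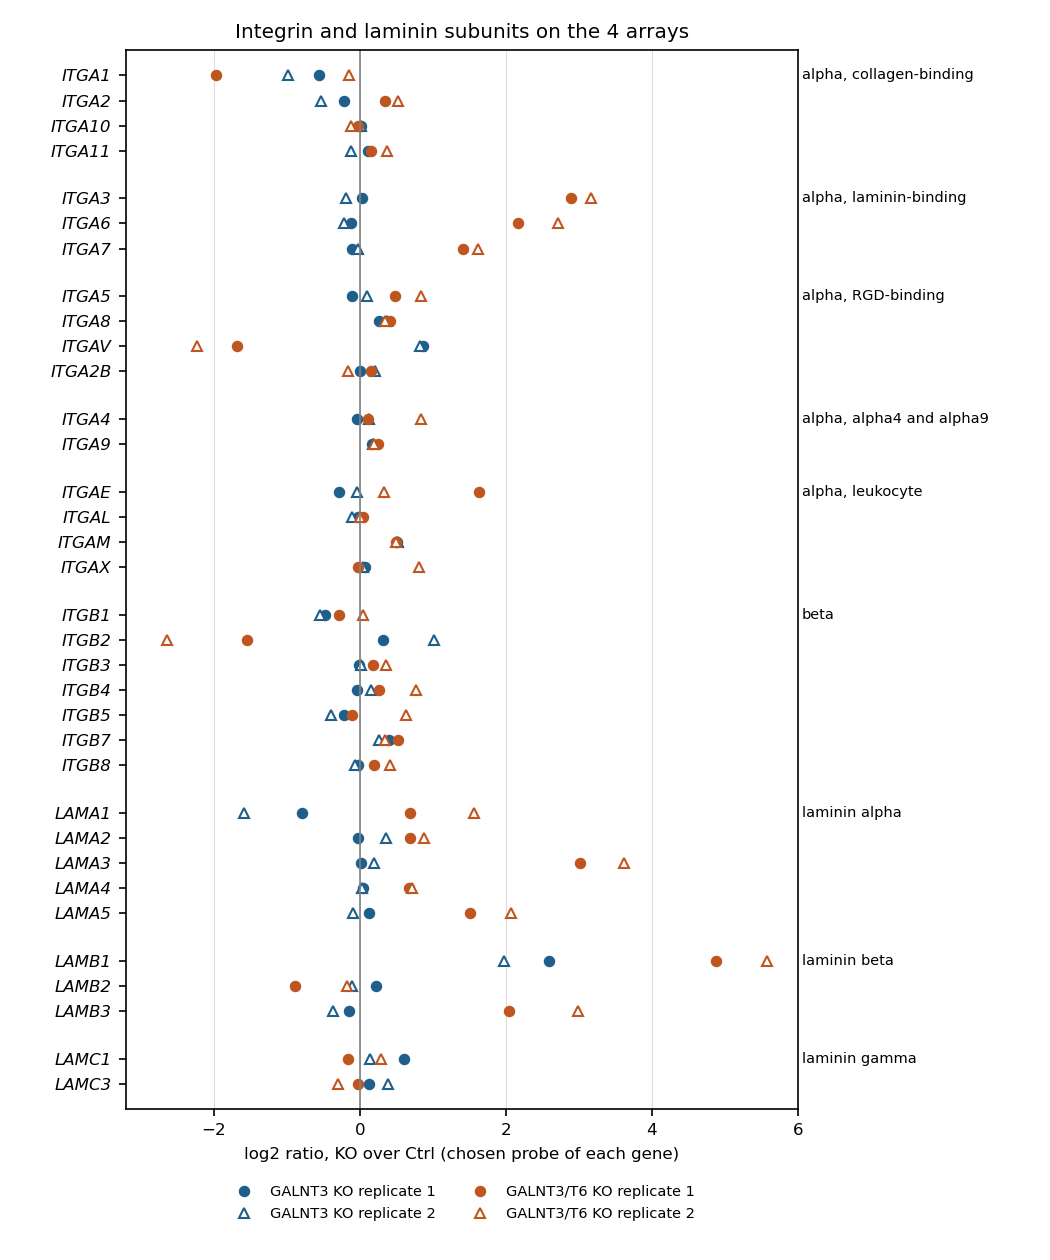
The log2 ratio of KO over Ctrl on each of the 4 arrays for 34 members that passed the filter, grouped by role (circles, replicate 1; triangles, replicate 2). LAMB1, LAMA3, ITGA3, ITGA6 and LAMB3 lie above 2 on both arrays of the clones labelled GALNT3/T6 KO, and ITGAV and ITGB2 lie below -1.5.

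LAMA3 and LAMB3, chains of laminin-332, the laminin that anchors stratified and glandular epithelium, rose in the clones labelled GALNT3/T6 KO. LAMA3, the alpha chain, had log2 ratios of 0.02 and 0.20 on the GALNT3 KO arrays and of 3.02 and 3.62 on the other arrays. For LAMB3, the beta chain, the values were -0.15 and -0.37, then 2.05 and 2.99. The groups did not overlap for either chain. Relative to Ctrl, LAMA3 was 9.99-fold higher in the clones labelled GALNT3/T6 KO (log2 3.32, standard error 0.16, adjusted p = 0.000297 from limma) and LAMB3 5.74-fold (2.52, standard error 0.24, adjusted p = 0.00168). Relative to GALNT3 KO the log2 differences were 3.21 for LAMA3 and 2.78 for LAMB3 (adjusted p = 0.00160 and 0.00651). On GALNT3 KO replicate 1 both channels of LAMA3 and the KO channel of LAMB3 were not well above background, so these ratios are not exact. LAMA3 passed the filter only through the arrays of the clones labelled GALNT3/T6 KO, where it was high, so its calls are not independent of the filter. Its other probes averaged 0.45 and 0.59 in these clones.

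LAMB1, a beta chain shared by laminin-111, laminin-211, laminin-411 and laminin-511, showed the largest change of all members and was the only laminin called in both groups. It stood at 2.59 and 1.97 in GALNT3 KO and 4.88 and 5.58 in the clones labelled GALNT3/T6 KO. All 4 arrays thus lay above Ctrl, the second group above the first. The change was 4.87-fold in GALNT3 KO (log2 2.28, standard error 0.23, adjusted p = 0.0194 from limma) and 37.6-fold in the clones labelled GALNT3/T6 KO (5.23, standard error 0.23, adjusted p = 0.000228). The difference of 2.95 between the groups was called as well (adjusted p = 0.00504). In GALNT3 KO its log2 ratio was 1.97 without replicate 1 and 2.59 without replicate 2. With 1 array left in that group no gene tested was called there, so the lost call is not particular to LAMB1.

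The laminin alpha chains, which carry the main sites for receptors, were all called higher in the clones labelled GALNT3/T6 KO. LAMA5, the alpha chain of laminin-511 and laminin-521, stood at 0.12 and -0.09 in GALNT3 KO and at 1.51 and 2.07 in the other group (mean 1.79, 3.46-fold, standard error 0.16, adjusted p = 0.00140 from limma). LAMA2, the alpha chain of the muscle laminin-211, stood at -0.02 and 0.36, then at 0.69 and 0.88 (mean 0.78, 1.72-fold, standard error 0.12, adjusted p = 0.00775). LAMA4, the alpha chain of the endothelial laminin-411, stood at 0.04 and 0.03, then at 0.67 and 0.71 (mean 0.69, 1.61-fold, standard error 0.08, adjusted p = 0.00286). Its size depends on the probe: a second LAMA4 probe gave 4.36 and 4.73 in the other group. LAMA1, the alpha chain of the embryonic laminin-111, lay on both sides of Ctrl on the probe used for it, while its other probes disagreed. On that probe it stood at -0.79 and -1.58 in GALNT3 KO and at 0.69 and 1.57 in the other group. Its mean of -1.18 in GALNT3 KO was not called (adjusted p = 0.0640), while the mean of 1.13 in the other group was (2.19-fold, standard error 0.28, adjusted p = 0.0301), as was the difference of 2.31 (adjusted p = 0.0180). The groups also differed in LAMA5, by 1.78 (adjusted p = 0.00734), and in LAMA4, by 0.66 (adjusted p = 0.0164), while the difference of 0.61 in LAMA2 was not called (adjusted p = 0.0717). The difference in LAMA4 was not called with median centring (0.64, adjusted p = 0.0535), without GALNT3 KO replicate 1 (0.66, adjusted p = 0.135) or without replicate 2 (0.65, adjusted p = 0.134). LAMA1 no longer passed against Ctrl with Agilent's log ratio (0.93, adjusted p = 0.0526), with median centring (0.87, adjusted p = 0.101) and without either GALNT3 KO array (1.13, adjusted p = 0.0658).

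LAMC1, LAMB2 and LAMC3 were not called. LAMC1, the gamma chain of laminin-111, laminin-211, laminin-411, laminin-421, laminin-511 and laminin-521, had a mean log2 ratio of 0.37 in GALNT3 KO (95% interval -0.08 to 0.82, unadjusted here and in what follows) and of 0.06 in the clones labelled GALNT3/T6 KO (-0.39 to 0.51). LAMB2, the beta chain of laminin-421 and laminin-521, stood at 0.06 (-0.46 to 0.58) and at -0.52 (-1.04 to -0.00). LAMB2 was called lower with Agilent's log ratio (-0.82, adjusted p = 0.0221) and without GALNT3/T6 KO replicate 2 (-0.88, adjusted p = 0.00146). LAMC3, a gamma chain that belongs to none of the trimers listed here, had means of 0.26 and -0.16 and was not called.

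The laminin-binding integrin alpha chains rose in the clones labelled GALNT3/T6 KO and stayed close to Ctrl in GALNT3 KO. ITGA3, which with beta1 binds laminin-332 and laminin-511, had log2 ratios of 0.03 and -0.19 in GALNT3 KO and of 2.89 and 3.16 in the other group. ITGA6, which pairs with beta1 or with beta4 of the hemidesmosome, had ratios of -0.12 and -0.22, then of 2.16 and 2.71. ITGA7, known as the laminin receptor of muscle, had ratios of -0.10 and -0.03, then of 1.41 and 1.62. For each gene the arrays of the groups lay apart. Relative to Ctrl, ITGA3 was 8.13-fold higher in the clones labelled GALNT3/T6 KO (3.02, standard error 0.11, adjusted p = 0.000155 from limma), ITGA6 5.42-fold (2.44, standard error 0.15, adjusted p = 0.000522) and ITGA7 2.86-fold (1.51, standard error 0.09, adjusted p = 0.000500). The differences between the groups were 3.10 for ITGA3, 2.61 for ITGA6 and 1.58 for ITGA7 (adjusted p = 0.000729, 0.00228 and 0.00235). On GALNT3 KO replicate 2 neither channel of ITGA3 was well above background. ITGA3 thus passed the filter only through the arrays of the clones labelled GALNT3/T6 KO, where it was high, so its calls are not independent of the filter.

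Among the beta chains, ITGB4, the partner of ITGA6 in hemidesmosomes, had ratios of -0.04 and 0.15 in GALNT3 KO and of 0.27 and 0.77 in the clones labelled GALNT3/T6 KO, where its mean of 0.52 was 1.43-fold (standard error 0.15, adjusted p = 0.0420 from limma). It no longer passed with median centring (0.45, adjusted p = 0.110), without GALNT3/T6 KO replicate 2 (0.27, adjusted p = 0.156) and without either GALNT3 KO array (0.52, adjusted p = 0.112). ITGB1, the beta chain of the laminin and collagen receptors, was not called in any comparison. Its mean was -0.51 in GALNT3 KO (95% interval -0.80 to -0.22, adjusted p = 0.0551) and -0.13 in the clones labelled GALNT3/T6 KO (-0.42 to 0.17, adjusted p = 0.388). Thus the laminin-binding alpha chains were called and their common beta chain was not, on the probe used for it.

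Collagen-binding alpha chains showed smaller changes. ITGA2, a platelet and epithelial collagen receptor chain, was at -0.21 and -0.53 in GALNT3 KO and at 0.35 and 0.53 in the clones labelled GALNT3/T6 KO, without overlap. Its mean there was 0.44 (1.36-fold, standard error 0.11, adjusted p = 0.0322 from limma) and the groups differed by 0.81 (adjusted p = 0.0264). With median centring the former stood at 0.41 (adjusted p = 0.0588). Neither value passed without GALNT3 KO replicate 1 (0.44, adjusted p = 0.0615, and 0.97, adjusted p = 0.0959) or replicate 2 (0.44, adjusted p = 0.0615, and 0.65, adjusted p = 0.163), and the value against Ctrl did not pass without GALNT3/T6 KO replicate 2 either (0.35, adjusted p = 0.0897). The other collagen-binding chains, ITGA1, ITGA10 and ITGA11, were not called, with means between -0.77 and 0.02 in GALNT3 KO and between -1.06 and 0.26 in the other group. ITGA1 had the widest spread of all members, at -1.97 and -0.15 in the clones labelled GALNT3/T6 KO. It was called lower there with Agilent's log ratio (-1.54, adjusted p = 0.0437) and without GALNT3/T6 KO replicate 2 (-1.97, adjusted p = 1.80e-05).

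ITGAV, the alpha chain of the vitronectin receptors that bind the RGD motif, was called in opposite directions in the groups. Its log2 ratio was 0.87 and 0.82 in GALNT3 KO and -1.68 and -2.23 in the clones labelled GALNT3/T6 KO. Both GALNT3 KO arrays lay above Ctrl and both others below it. The gain in GALNT3 KO was 1.80-fold (0.84, standard error 0.15, adjusted p = 0.0417 from limma), and in the clones labelled GALNT3/T6 KO the gene was 3.88-fold lower (-1.96, standard error 0.15, adjusted p = 0.000932). The difference was -2.80 (adjusted p = 0.00185). ITGAV no longer passed in GALNT3 KO with Agilent's log ratio (0.85, adjusted p = 0.0841) and with the mean of both probes (0.55, adjusted p = 0.0810). It stood at 0.82 without GALNT3 KO replicate 1 and at 0.87 without replicate 2, where no gene tested was called in that group. The chosen probe was printed in 10 spots on each array, and over these spots its SD was 0.23, 0.23, 0.32 and 0.36 on the 4 arrays.

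None of the beta partners of ITGAV that were tested was called on its chosen probe. ITGB6, another partner, did not pass the filter and was not tested. In the clones labelled GALNT3/T6 KO the mean was 0.27 for ITGB3 (95% interval 0.04 to 0.50), 0.27 for ITGB5 (-0.24 to 0.78) and 0.30 for ITGB8 (0.05 to 0.55). In GALNT3 KO the means of ITGB3, ITGB5 and ITGB8 were 0.00 (-0.23 to 0.23), -0.31 (-0.82 to 0.20) and -0.05 (-0.30 to 0.20). ITGB8 was called higher in the clones labelled GALNT3/T6 KO with Agilent's log ratio (0.53, adjusted p = 0.0114) and without GALNT3/T6 KO replicate 1 (0.42, adjusted p = 0.0329), as was ITGB5 without that array (0.64, adjusted p = 0.00537). ITGA5 and ITGA8, which also bind RGD ligands, were called with smaller changes. ITGA5, the fibronectin receptor chain, stood at -0.11 and 0.10 in GALNT3 KO and at 0.48 and 0.84 in the other group (mean 0.66, 1.58-fold, standard error 0.12, adjusted p = 0.0125 from limma), a call lost with median centring (0.51, adjusted p = 0.0715) and without either GALNT3 KO array (0.66, adjusted p = 0.0510). ITGA8, a receptor chain for nephronectin, stood at 0.27 and 0.38, then at 0.42 and 0.34, so the groups overlapped. Its mean of 0.38 in the clones labelled GALNT3/T6 KO (1.30-fold, adjusted p = 0.0204) was 0.12 with Agilent's log ratio (adjusted p = 0.378). Without either GALNT3 KO array its adjusted p was 0.0658, and without GALNT3/T6 KO replicate 1 the value was 0.34 (adjusted p = 0.0720). ITGA2B, the platelet fibrinogen receptor chain, had means of 0.10 and -0.00 and was not called.

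The integrin chains of leukocytes and their partners gave mixed results. ITGAM, the alpha chain of the complement receptor of myeloid cells, was 0.51, 0.52, 0.49 and 0.50 on the 4 arrays, nearly the same on each, and was called in both groups (1.43-fold and 1.41-fold, adjusted p = 0.0337 and 0.00764 from limma). With Agilent's log ratio these calls were lost, at 0.26 and 0.18 (adjusted p = 0.182 and 0.206), and with median centring at 0.30 and 0.31 (adjusted p = 0.158 and 0.0908). In GALNT3 KO it stood at 0.52 without replicate 1 and at 0.51 without replicate 2, where no gene tested was called in that group. ITGB7, a beta chain of lymphocyte homing receptors, stood at 0.40 and 0.26, then at 0.52 and 0.35, with overlapping groups (mean 0.44 in the clones labelled GALNT3/T6 KO, 1.35-fold, adjusted p = 0.0190). ITGB7 no longer passed with Agilent's log ratio (0.20, adjusted p = 0.173), with median centring (0.31, adjusted p = 0.0616), without either GALNT3 KO array (adjusted p = 0.0628) and without GALNT3/T6 KO replicate 1 (0.35, adjusted p = 0.0699). Its alpha partners ITGA4 and ITGAE were not called, at means of 0.47 (95% interval -0.03 to 0.97) and 0.98 (0.15 to 1.81) there. ITGA4 was called higher with Agilent's log ratio (0.80, adjusted p = 0.0445) and without GALNT3/T6 KO replicate 1 (0.84, adjusted p = 0.00113). ITGAE depended on the array left out: without GALNT3/T6 KO replicate 2 it was called (1.63, adjusted p = 2.54e-05), and it stood at 0.33 without replicate 1 (adjusted p = 0.0987). ITGA9, the relative of ITGA4 that binds tenascin, had means of 0.17 and 0.23 and was not called.

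ITGB2, the beta chain shared by the leukocyte integrins, fell on the probe used for it. Its ratio was 0.32 and 1.01 in GALNT3 KO and -1.55 and -2.64 in the clones labelled GALNT3/T6 KO, again without overlap. The mean there was 4.28-fold lower (-2.10, standard error 0.31, adjusted p = 0.00616 from limma), and the groups differed by -2.77 (adjusted p = 0.0135). The partners ITGAL and ITGAX were not called, with means of 0.03 (95% interval -0.19 to 0.24) and 0.39 (-0.16 to 0.94) in the clones labelled GALNT3/T6 KO. The second ITGB2 probe, A_23_P329573 (10 spots, chr21:46305926-46305985), had the opposite sign, with ratios of 0.08, 0.07, 0.32 and 1.64 on the 4 arrays. Its Ctrl channel was not well above background on any array, so in the clones labelled GALNT3/T6 KO it gave only a bound, at least 1.90-fold higher. The mean of both probes stood at -0.56 against Ctrl, still called lower. The direction of ITGB2 therefore depends on the probe.

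Probes were compared for 13 members with more than 1 probe that passed the filter. Those of ITGAV agreed in direction, the second, A_23_P381992, giving 0.25 and 0.27 in GALNT3 KO and -1.60 and -2.21 in the clones labelled GALNT3/T6 KO. ITGA2 stood above 0 there on each of its 4 probes. For LAMA3 the other probes stood lower, at 0.45 and 0.59, and the mean over its probes was 1.45. LAMA1 had 5 probes, of which 2 stood below 0 in the clones labelled GALNT3/T6 KO, A_23_P118967 at -0.24 and 0.08 and A_32_P199126 at -0.04 and -0.06. With the mean of its probes LAMA1 stood at 0.43 against Ctrl. In GALNT3 KO, LAMA1 probe A_24_P59899 stood above Ctrl, at 0.29 and 0.60. Between the groups the 4 other LAMA1 probes differed by 0.04 to 1.05, and the probe used by 2.31.

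Some further probes were singled out after their values were seen. LAMA4 probe A_23_P133656 (chr6:112430490-112430549) gave 0.33 and 0.17 in GALNT3 KO and 4.36 and 4.73 in the clones labelled GALNT3/T6 KO, far above the 0.67 and 0.71 of the probe used for this gene. With the mean of its probes LAMA4 stood at 2.62. ITGB8 probe A_24_P759477 (chr7:20455137-20455196) gave 0.17 and 0.17, then 3.91 and 4.31, while its other probes gave between 0.03 and 1.22 on these arrays. ITGB3 probe A_24_P929003 (chr17:45368654-45368713) gave 1.23 and 1.48 there, with Ctrl not well above background, hence at least 2.34-fold higher. ITGB1 probes A_23_P104193 and A_23_P104199 stood at 0.28 and 0.53 and at 0.58 and 0.43 in the clones labelled GALNT3/T6 KO, above Ctrl on all 4 arrays, while the ITGB1 probe used for the gene stood at -0.29 and 0.04. With the mean of all probes ITGB3 and ITGB8 were called higher there as well, which brought the count of members higher to 19, with 24.7% of all genes.

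**Figure D3:**
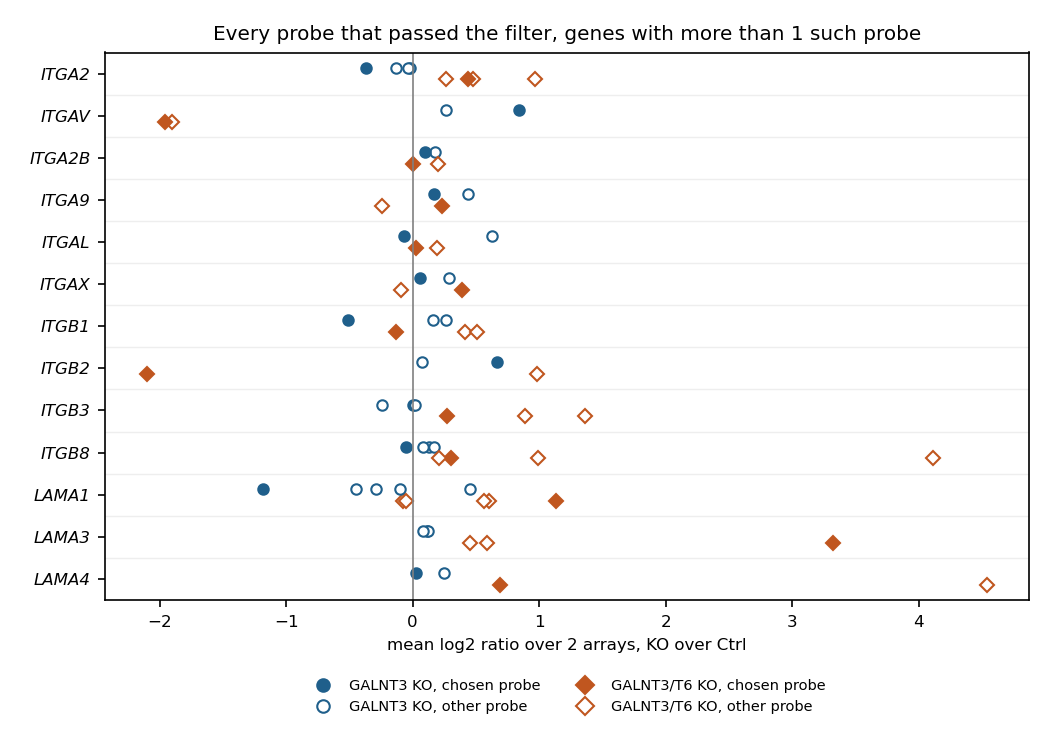
Mean log2 ratio of KO over Ctrl in each group for every probe that passed the filter, for 13 members with more than 1 such probe (filled, the chosen probe; open, the others; circles, GALNT3 KO; diamonds, clones labelled GALNT3/T6 KO). The probes of ITGB2 lie on opposite sides of 0, at -2.10 and 0.98, and those of LAMA4 lie at 0.69 and 4.54.

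The Ctrl channel was compared between arrays, because a ratio moves with either channel. After normalization within and between arrays, the log2 Ctrl signal of ITGA3 was 7.19 and 6.79 on the GALNT3 KO arrays and 9.65 and 10.6 on the arrays of the clones labelled GALNT3/T6 KO, while its KO signal was 7.22 and 6.60, then 12.5 and 13.8. For LAMB3 the Ctrl signal was 7.27 and 7.84, then 8.60 and 8.88, and for LAMB1 8.66 and 8.10, then 9.21 and 9.51. The Ctrl signal of these members was thus higher on the arrays of the clones labelled GALNT3/T6 KO, where their KO signal was higher too. For ITGA6 it was 10.8 and 10.6, then 10.6 and 10.5, and for ITGAV 14.3 and 14.5, then 14.5 and 14.4. Over the 11 members called higher than in GALNT3 KO, the Ctrl signal differed by a median of 0.18 (from -0.21 to 3.15), and over all genes tested by -0.08. When only the KO channels were compared, 9 of these 11 members were called higher, with 8.02% of all genes. The 11 had been picked as called higher in the same data, and the 9 include ITGA3, LAMA3 and LAMB3. ITGA2 (0.81, adjusted p = 0.193) and LAMA4 (0.45, adjusted p = 0.399) were not called. Without the Ctrl channel the difference was 3.93 for LAMB1. It is not given for ITGA3, LAMA3 and LAMB3, which were dim in the KO channel of 1 GALNT3 KO array, where they were not well above background. The part of the Ctrl channel in these ratios was not tested.

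**Figure D4:**
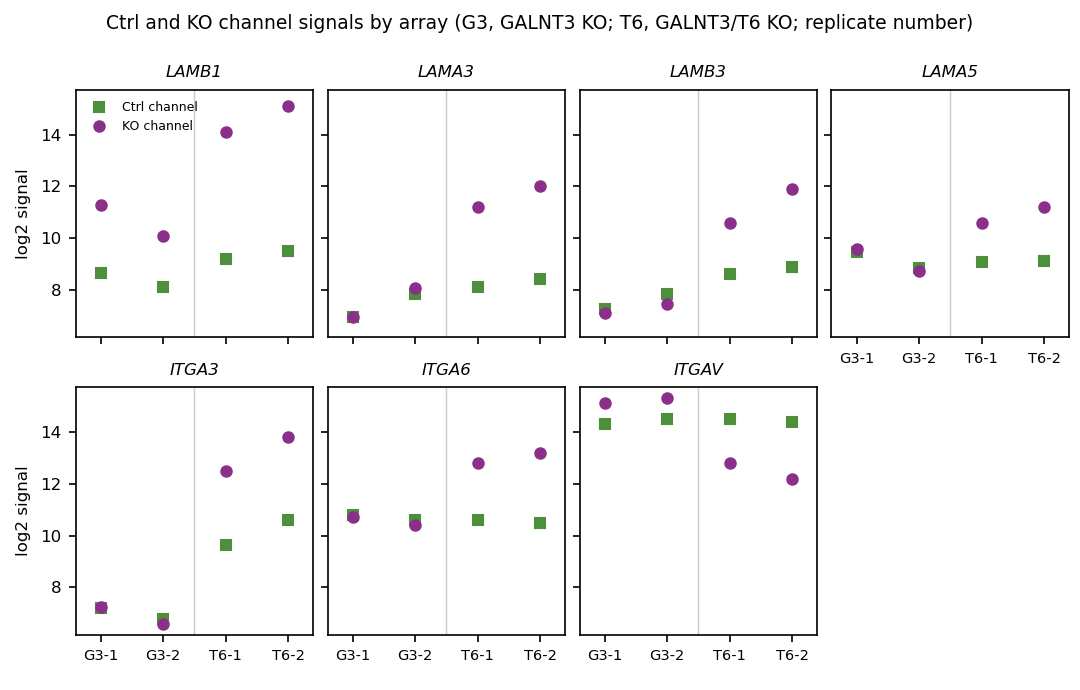
Log2 signal of the Ctrl channel (squares) and the KO channel (circles) on each array for 7 members, after normalization within and between arrays. The KO signal of LAMB1 is 14.1 and 15.1 on the arrays of the clones labelled GALNT3/T6 KO, and the Ctrl signal of ITGA3 rises with its KO signal, while that of ITGA6 stays between 10.5 and 10.8.

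Related genes of the adhesion pathway were counted in lists chosen with earlier results of these data known. All-gene shares to read beside them were 24.8% higher and 23.1% lower in the clones labelled GALNT3/T6 KO, and 4.69% and 6.35% in GALNT3 KO. Of 24 integrin activators and adaptors tested, 10 were called higher and 2 lower in the clones labelled GALNT3/T6 KO, with a median log2 ratio of 0.24. The largest changes were in TNS3, a tensin of focal adhesions (3.69), PARVA, a partner of integrin-linked kinase (3.11), and LPP, a focal adhesion scaffold (-1.10). Of 23 focal adhesion kinases and signalling genes, 7 were higher and 4 lower (median 0.23), led by CAV1, the caveolae coat protein (3.60), FYN, a Src family kinase (2.28), and CRKL, an adaptor (-1.48). In GALNT3 KO, FBLIM1, a filamin-binding adaptor, was lower (-0.57) and SHC1, a growth factor adaptor, higher (0.81), and no other gene of these lists was called.

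Of 19 basement membrane genes other than laminins, 10 were called higher and 2 lower in the clones labelled GALNT3/T6 KO (median 0.79), where 24.8% of all genes were higher and 23.1% lower. NTN4, a laminin-like netrin, stood at 4.24, COL4A2, a type IV collagen chain, at 3.58 and SPARC, a collagen-binding matrix protein, at 3.43. COL4A1, the partner chain of COL4A2, was the only gene of this list called in GALNT3 KO (0.50, adjusted p = 0.0413 from limma). Of 9 other laminin receptors, 4 were higher and 2 lower (median 0.38), with CD44, the hyaluronan receptor, at 5.46, SDC4, a syndecan of focal adhesions, at 2.73 and SGCE, a sarcoglycan, at 2.40. In GALNT3 KO, SDC4 was higher (0.67) and SGCE lower (-0.86), so that SGCE was called in opposite directions in the groups.

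Of 23 integrin ligands other than laminins, 12 were called higher and 5 lower in the clones labelled GALNT3/T6 KO (median 0.43). CYR61, a matricellular protein bound by alphaV integrins, was at 3.96, and the leukocyte integrin ligands ICAM1 and VCAM1 at 3.88 and 3.86. In GALNT3 KO, 2 of these ligands were higher and 3 lower, led by SPP1, the osteopontin gene (-1.86), CTGF, a relative of CYR61 (1.37), and TGFB3, a growth factor with an RGD motif in its propeptide (-0.85). Integrin membrane partners were called higher in 10 of 14 cases in the clones labelled GALNT3/T6 KO (median 0.63), and the other 4 were not called. CD9 (3.25), CD82 (2.73) and CD63 (2.21), all tetraspanins, rose most. In GALNT3 KO, PLAUR, the urokinase receptor (-1.20), CD9 (-1.07) and CD47, a thrombospondin receptor (-0.78), were lower, and the other 11 were not called. Set against GALNT3 KO, CD9 differed by 4.32, PLAUR by 2.52 and CD82 by 2.46 (adjusted p = 0.000419, 0.000849 and 0.00101).

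Between the groups themselves, 5 activators and adaptors were higher in the clones labelled GALNT3/T6 KO and 1 lower, led by TNS3 (3.28), PARVA (3.07) and FBLIM1 (1.66). Among kinases and signalling genes 4 were higher and 4 lower, led by CAV1 (4.18), FYN (2.39) and CRKL (-1.15). The basement membrane genes NTN4 (4.24), COL4A2 (3.56) and SPARC (3.22) led 8 that were higher. The receptors CD44 (5.42), SGCE (3.26) and SDC4 (2.06) led 4 higher and 1 lower, and the ligands CYR61 (4.44), VCAM1 (3.85) and ICAM1 (3.79) led 11 higher and 3 lower. All-gene shares in this comparison were 11.8% higher and 11.9% lower. The labels describe the Ctrl of every array alike, and whether the groups shared one Ctrl RNA is not given in the sources used here.

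**Figure D5:**
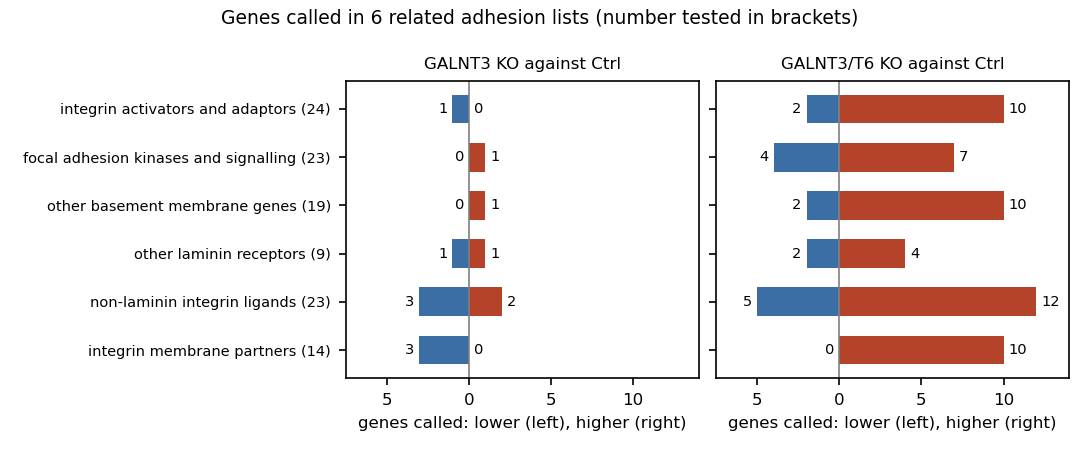
Number of genes called higher (right) and lower (left) in 6 related adhesion lists, in GALNT3 KO and in the clones labelled GALNT3/T6 KO, each against Ctrl, with the number tested in brackets. Integrin membrane partners have 10 genes higher in the clones labelled GALNT3/T6 KO and 3 lower in GALNT3 KO.

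Markers of cell types were read beside these results. In the Ctrl channel all 8 Mullerian and ovarian cancer markers and 8 of 9 simple epithelial markers were well above background on all arrays, but so were all 7 leukocyte markers tested and all 9 fibroblast markers. The leukocyte markers CD3D and SPI1 did not pass the filter. Of 5 endothelial markers tested, 4 were well above background in Ctrl on all arrays. PECAM1, which did not pass the filter, was not well above background in Ctrl on any array. The summed signal of the 9 simple epithelial markers moved with the group: it ran from 8080 to 10700 over both channels of the GALNT3 KO arrays, and on the arrays of the clones labelled GALNT3/T6 KO it was 46800 and 34800 in Ctrl and 949000 and 891000 in KO. The keratins KRT18 (5.68), KRT19 (4.81) and KRT7 (2.89) rose most, and 6 of 9 were called higher there. All-gene shares to read beside this and the other marker counts there were 24.8% higher and 23.1% lower. Summed leukocyte markers ran from 5030 to 5210 in Ctrl and from 5220 to 7180 in KO, with CD68 higher (1.70) and CD3E lower (-0.36) in the clones labelled GALNT3/T6 KO. Fibroblast markers ran from 53000 to 55200 in Ctrl and from 49100 to 79600 in KO, with 4 higher and 4 lower there (median log2 ratio -0.32). The rises were led by PDGFRB (3.44), FAP (2.88) and COL1A1 (1.99), and the falls were in PDGFRA (-1.94), LUM (-1.19), COL3A1 (-0.98) and COL1A2 (-0.32). Of 8 Mullerian markers, 4 were higher there, PAX8 (1.21), MSLN (1.08) and WT1 (1.01) the most, and of 5 endothelial markers 3, VWF (1.32), KDR (1.21) and TEK (0.49). The summed Mullerian markers ran from 5110 to 6970 in Ctrl and from 7970 to 8650 in KO, and the endothelial ones from 2270 to 3010 and from 3490 to 4740. In GALNT3 KO, LUM (-1.07) was lower and COL1A2 (0.62) and KDR (0.56) were higher, and no other marker was called. Their part in the changes of integrins and laminins was not tested.

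Each comparison rests on 2 arrays a group. Without GALNT3 KO replicate 1, limma called 2 members higher and 0 lower than in GALNT3 KO in the clones labelled GALNT3/T6 KO, ITGA3 among them (2.76% and 1.82% of all genes), with 11 and 2 at an unadjusted p of at most 0.05. Without GALNT3 KO replicate 2, it called 3 higher, ITGA3 and LAMA3 among them, and 0 lower (3.19% and 2.19% of all genes), with 13 and 2 at an unadjusted p of at most 0.05. Without GALNT3/T6 KO replicate 1 the counts were 19 higher and 3 lower (16.7% and 15.5% of all genes), and without GALNT3/T6 KO replicate 2 they were 12 and 4 (15.5% and 17.4%). Among members not called against Ctrl in the clones labelled GALNT3/T6 KO, ITGA9 and ITGA11 were called with Agilent's log ratio and ITGAX without GALNT3/T6 KO replicate 1.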

How the data were processed

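Two-colour Agilent arrays measured total RNA of 4 KO clones against Ctrl. Per the file headers, the authors extracted spot intensities with Agilent Feature Extraction 10.7.3.1 (the labels give 8.5.1.1). The deposited value table holds the log10 ratio of Cy5 over Cy3 from the same arrays. By the labels KO carried Cy5 on every array; the reverse-color wording in the study's methods does not settle whether dyes were swapped. The intensities were corrected with normexp (offset 50) in limma 3.58.1 (R 4.3.3) and normalized by loess within each array, giving log2 ratios. Outlier spots were left out and the brightest probe that passed the filter stood for a gene. limma fitted all 4 arrays with a mean per group and no block, and was tested on simulated data. Each of the 45015 spots was read; 86.9% to 93.8% of noncontrol spots were well above background, and none was saturated. The few arrays limit the precision. Replicates are clones of 1 line. One member is counted but not reported here by name. Members called, their partners in a heterodimer or trimer and, of each list, the 3 called genes with the largest mean were named, while members and lists were chosen with earlier results of these data known. Normalization, filter, probe choice, test, pairing and left-out arrays were varied. Channel signals came from loess and Aquantile scaling. Promoters came from RefSeq GRCh38.p14, probe positions from the hg19 columns of the files.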

Additional observations from a re-analysis of the deposited data

Results flagged for a closer look

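In 12 of the members named here the log2 ratio in the clones labelled GALNT3/T6 KO differed from that in GALNT3 KO, by limma's test of the difference itself. Of all genes tested, 11.8% were called higher and 11.9% lower in this comparison. The rises were 3.21 for LAMA3, 3.10 for ITGA3, 2.95 for LAMB1, 2.78 for LAMB3, 2.61 for ITGA6, 2.31 for LAMA1, 1.78 for LAMA5, 1.58 for ITGA7, 0.81 for ITGA2 and 0.66 for LAMA4. The falls were -2.80 for ITGAV and -2.77 for ITGB2. The adjusted p ran from 0.000729 for ITGA3 to 0.0264 for ITGA2. The direction of ITGB2 depends on the probe, and so do the sizes for LAMA1, LAMA3 and LAMA4. By their other probes the difference was 0.04 to 1.05 for LAMA1, 0.33 to 0.50 for LAMA3 and 4.30 for LAMA4. On the probes used, ITGA2 and LAMA4 lost their calls when the KO channels alone were compared, LAMA4 also with median centring. ITGA3 and LAMA3 passed the filter only through the arrays of the clones labelled GALNT3/T6 KO, where they were high. With 2 arrays a group, no array could be tested as standing apart from its group.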

How the results depend on the processing

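Of the members called against Ctrl in the clones labelled GALNT3/T6 KO, ITGA3, ITGA6, ITGA7, ITGAV, ITGB2, LAMA2, LAMA3, LAMA4, LAMA5, LAMB1 and LAMB3 kept their call under every alternative that tested them except the methods' t-test, and no called member changed sign. For ITGA3 and LAMA3 these alternatives do not include the stricter filter on dim probes, which removed both. For ITGB2 no alternative used its second probe alone, which had the opposite sign. The methods' t-test, which the study used for other assays, called 0 members in each direction of each comparison after adjustment, with at most 0.0882% of all genes. At an unadjusted p of at most 0.05 it gave 5 higher and 1 lower in GALNT3 KO, 6 and 0 in the clones labelled GALNT3/T6 KO, and 10 and 2 between the groups. Shares of all genes at an unadjusted p alone are not given here, so counts at that threshold cannot be set against them. With Agilent's log ratio, as with the deposited table, 1 member was higher in GALNT3 KO (0.724% of all genes) and 4 were lower in the clones labelled GALNT3/T6 KO (23.1%). Median centring gave 11 members higher in the latter (18.0% of all genes). With the spread from a group's own arrays, 7 were higher and 5 lower in GALNT3 KO (16.9% and 17.9% of all genes) and 11 higher in the other group (14.7%). By the study criterion 1 member was lower in GALNT3 KO (6.37%).

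Leaving out 1 array at a time gave 0 to 7 members higher and 0 to 5 lower in GALNT3 KO (0 to 16.9% and 0 to 17.9% of all genes), 11 to 19 higher and 2 to 4 lower in the clones labelled GALNT3/T6 KO (14.7% to 23.4% and 15.9% to 24.1%), and 2 to 19 higher and 0 to 4 lower between the groups (2.76% to 16.7% and 1.82% to 17.4%). Where an array was left out, the lone array of its group was assumed to vary like the other group.

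The groups share replicate numbers, but same-numbered arrays did not deviate together (Pearson r = -0.239 across genes, which are not independent replicates). With 2 arrays a group, crossing the numbers only turns the sign of r, so this value cannot settle the pairing. With the replicate block limma called 0 members higher and 0 lower in GALNT3 KO (5 and 2 at an unadjusted p of at most 0.05; 0.110% and 0.191% of all genes), 14 and 2 in the clones labelled GALNT3/T6 KO (18.2% and 18.9%), and 9 and 2 between the groups (9.31% and 8.13%). Pairing crossed numbers, chosen after seeing the data, gave 4 and 2 (5.48% and 8.30% of all genes), 18 and 4 (25.4% and 24.4%), and 11 and 2 (13.0% and 13.9%). Signals near background limit ITGA3, LAMA3, LAMB3 and the second ITGB2 and ITGB3 probes. Comparing the KO channels alone was also chosen after seeing the data.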
